A study of Homo sapiens with 6 samples.

Results

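Heat shock proteins and chaperones are the genes described here, in BT549 cells treated with AS1842856 or with its solvent DMSO. A gene was a member if its symbol belonged to the HSP70 and HSP110 (HSPA, HSPH1), small heat shock protein (HSPB), HSP60 and HSP10 (HSPD1, HSPE1), HSP90 or J protein (DNAJA, DNAJB, DNAJC) families, or was HSF1 or HSF2. This rule found 75 genes with 74 symbols among the 58735 genes of the count table, since HSPA14 has 2 identifiers that share exons. BT549 cells are a long-established line from a basal-like breast cancer. AS1842856 binds the forkhead transcription factor FOXO1 and keeps it off DNA. The paper proposes that it modulates FOXO1 and does not only inhibit it. The labels give 3 DMSO control and 3 AS1842856-treated RNA-Seq libraries, at 200 nM for 48 h. The paper's methods name a higher concentration of AS1842856, and which of the doses was used could not be settled from the sources. All 6 libraries came from 1 cell line, 1 dose and 1 time point. The labels do not say whether replicates A, B and C of a group were separate cultures, although the paper calls them biological replicates, so the p-values measure the spread between these libraries.

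Chaperones bind unfolded proteins and let them fold, cross membranes or be passed on for degradation. HSP70 proteins do this in cycles of ATP hydrolysis that J proteins start and exchange factors end, while HSP90 acts late, on proteins that are close to their active form. HSF1 is the transcription factor that raises the cytosolic set when unfolded proteins build up, and the endoplasmic reticulum (ER) and mitochondria carry chaperones and stress responses of their own. Tumor cells of many kinds depend on high chaperone levels.

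The libraries held between 15289500 and 22981832 counts. Levels are given as CPM (counts per gene, brought to the same depth by library totals that edgeR's TMM factors adjust), and these factors ran from 0.995 to 1.01. The mesenchymal markers that fit the BT549 label were present in all libraries, and all 4 differed between the groups in edgeR's test. VIM fell from 1322 to 1046 CPM on average and CD44 from 897 to 655 CPM, while FN1 rose from 449.5 to 981 CPM and ZEB1 from 69.7 to 98.5 CPM. The epithelial and luminal markers ESR1, PGR, EPCAM and CDH1 had at most 8 counts in any library, whereas GATA3, also a luminal marker, was expressed at 48.1 to 52.9 CPM in the controls and 57.0 to 65.3 CPM after treatment. The endothelial marker PECAM1 was at 0 counts in 5 of the 6 libraries, and the leukocyte marker PTPRC lay at 0.70 to 1.56 CPM in the controls and 2.64 to 3.59 CPM after treatment. The simple epithelial keratins also differed between the groups, with KRT8 at 38.8 to 42.0 CPM in the controls and 3.81 to 4.38 CPM after treatment. Whether any of these differences has a part in the chaperone results was not tested. In bulk RNA, fewer cells of a kind and less RNA per cell cannot be told apart.

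After AS1842856 treatment the chaperone genes moved both ways. The cytosolic heat-inducible chaperones HSPA1A, HSP90AA1, HSPB1 and HSPA4L fell by 34.0% to 47.7%. HSPA1A, at 47.7%, shares most of its sequence with HSPA1B, and the pair summed had a log2 fold change of -0.71. Of the other tested genes of this kind, HSPA8 and DNAJA1 fell less, with log2 fold changes of -0.25 and -0.09. HSPA1B alone (-0.37) and HSPH1 (0.006) did not pass edgeR's test. The ER chaperones HSPA5 and HSP90B1 fell by 27.3% and 18.7%, and the J protein gene DNAJC6 fell by 86.1%. DNAJB1, the main J protein of the heat shock response, rose by 69.5%, and the mitochondrial chaperones HSPD1 and HSPA9 rose by 15.3% and 14.7%. Low counts left 60 of the 75 members for testing. By the quasi-likelihood test of edgeR, with the threshold for the adjusted p set at 0.05, 33 of the 60 were called different, beside 56.0% of all 14338 genes tested. Of these members 18 were higher, beside 27.6% of all genes, and 15 were lower, beside 28.4% of all genes. The members' median log2 fold change was 0.06, against 0.003 over all genes.

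Most changes were small. Only 9 of the 60 members were called with a log2 fold change of 0.5 or more in size, beside 23.4% of all genes. Among them 8 were lower, beside 13.9% of all genes, and only DNAJB1 was higher, beside 9.49% of all genes. The control and treated libraries did not overlap in 37 of the 60 members (61.7%), beside 59.9% of all genes. As families, the 22 tested HSP genes held 4 higher and 8 lower calls with a median log2 fold change of -0.02, beside 27.6% higher and 28.4% lower over all genes, and the 36 tested J protein genes held 13 higher and 7 lower calls with a median of 0.10.

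**Figure D1:**
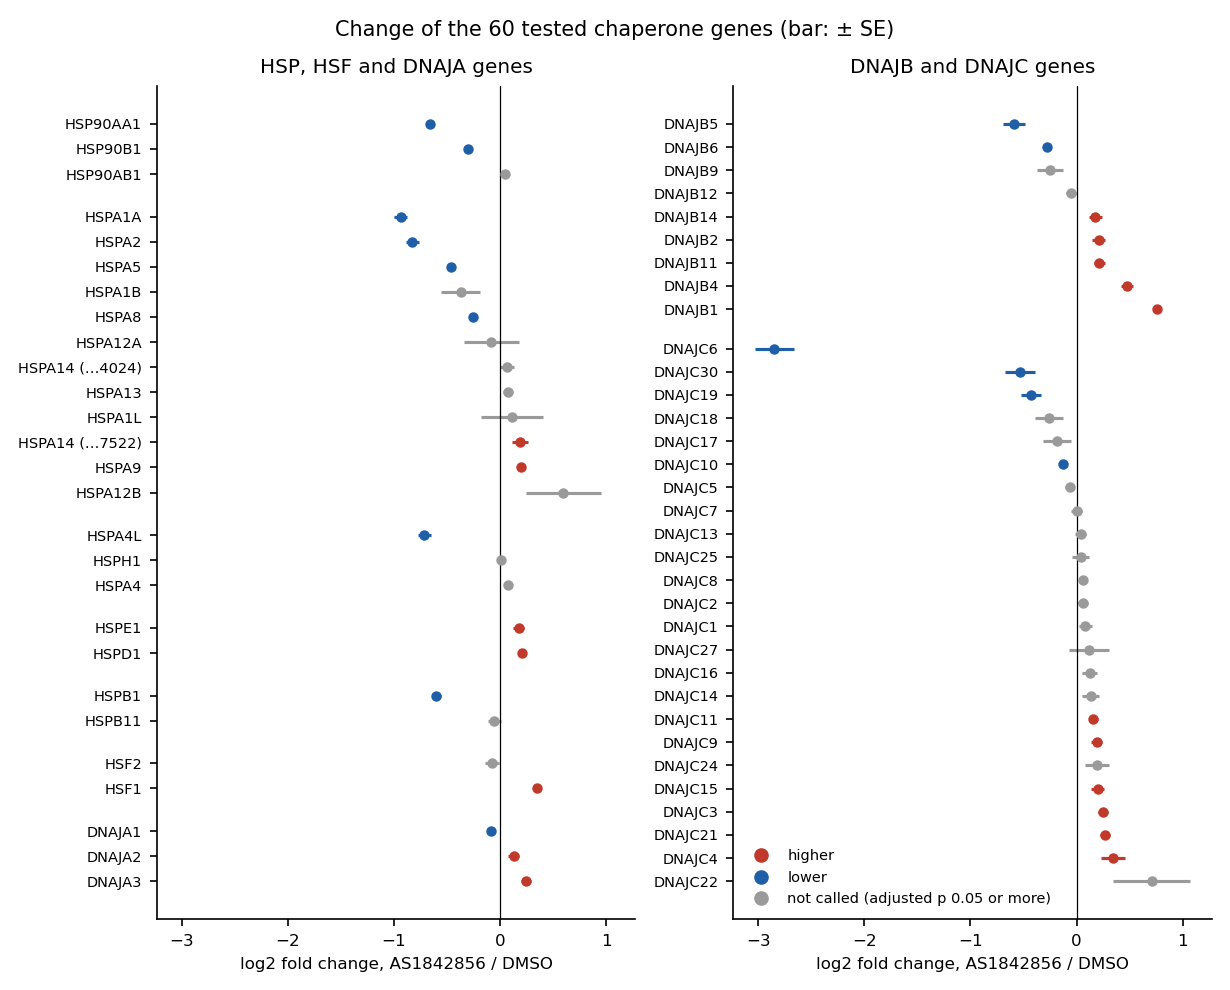
Log2 fold change of AS1842856 over DMSO for each of the 60 tested members, grouped by family, with points for the edgeR estimate and bars for 1 SE (3 libraries a group). DNAJC6 lies at -2.85, far to the left of every other member, and DNAJB1 at 0.76 is the called member farthest to the right.

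Read per length, as the deposited FPKM, 8 members stood at 100 FPKM or more in the controls. These values lie near counts divided by depth and by the length of all annotated exons of a gene. Their order between genes therefore depends on the annotation. By mean CPM in the controls, HSP90AA1 (5248 exon bases) lay above HSP90AB1 (2980 exon bases), at 3231 against 2301. HSP90AB1, the constitutive cytosolic HSP90, led with 767 ± 12.9 FPKM (SD, n = 3), followed by the inducible HSP90AA1 with 612 ± 25.0 and HSPA8, the constitutive cytosolic HSP70, with 538 ± 9.15. Next came HSPA5 at 275 ± 9.42, HSPB1 at 254 ± 22.7 and DNAJA1 at 252 ± 5.0 FPKM, whose libraries overlapped from one gene to the next. HSPD1 with 210.1 ± 6.05 and HSP90B1 with 160 ± 2.47 FPKM completed the set. After treatment HSP90AB1 stayed first with 791 ± 5.55 FPKM, HSPA8 with 451 ± 8.11 stood above HSP90AA1 with 388 ± 7.33, and HSPD1 with 242 ± 4.38 took place 4. The HSPD1 libraries overlapped those of DNAJA1, next below with 237 ± 4.28 FPKM. HSPA1A went from place 15 to place 22 among the members. Together the members took 1.67%, 1.70% and 1.73% of all counts in the control libraries and 1.52%, 1.54% and 1.51% in the treated libraries. HSP90AA1 alone took 0.323% of counts in the controls and 0.204% after treatment.

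**Figure D2:**
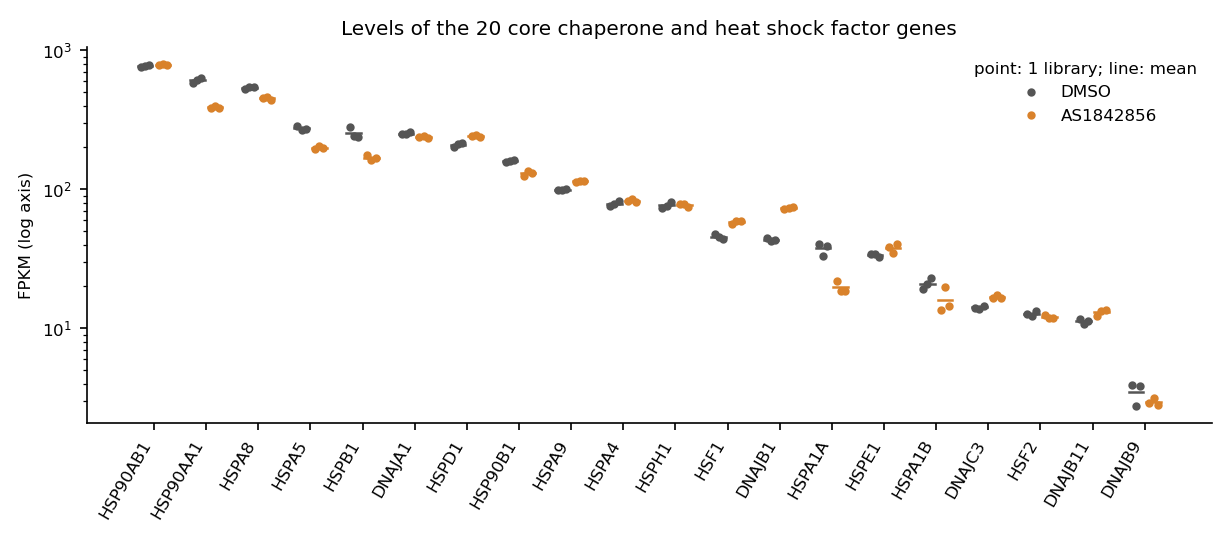
FPKM on a log axis for the 20 best known members, with 1 point per library and a line at the mean of each group. The treated points lie below the control points for HSP90AA1, HSPA8, HSPA5, HSPB1, HSP90B1 and HSPA1A, and above them for HSPD1, HSPA9, HSF1 and DNAJB1.

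Among the cytosolic HSP90 genes, HSP90AA1 (ENSG00000080824, GRCh38 chr14:102080738-102139699, minus strand) fell. Its levels were 3093, 3240.4 and 3359.9 CPM in the controls and 2030.5, 2094 and 2025 CPM after treatment, so that all control libraries lay above all treated ones. The log2 fold change was -0.66 (SE 0.031, edgeR adjusted p = 5.28e-55). Its paralog HSP90AB1 (chr6:44246166-44253888, plus strand), which most cells keep at a steady level, stood at 2259.9, 2303 and 2339 CPM in the controls and 2364, 2389 and 2359.6 CPM after treatment. These libraries did not overlap either, but the log2 fold change of 0.04 (SE 0.031) did not pass edgeR's test (adjusted p = 0.235). The ratio of HSP90AA1 to HSP90AB1 counts within a library, chosen after the values were seen, was 1.37, 1.41 and 1.44 in the controls and 0.859, 0.876 and 0.858 after treatment. The difference in the log2 ratio was -0.70. No test is given for this or the other ratios, since each was chosen for genes whose changes were known. Of the 50-base windows of HSP90AA1 and HSP90AB1 transcripts, 11.3% and 16.6% also occur in other genes, mostly pseudogenes.

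Of the HSP70 genes of the cytosol, HSPA1A, HSPA8 and HSPA2 fell. HSPA1A (ENSG00000204389, chr6:31815464-31817946, plus strand), the HSP70 best known for its induction by heat, had 101, 82.6 and 97.5 CPM in the controls and 54.9, 46.6 and 46.5 CPM after treatment. It fell by 0.94 on the log2 scale (SE 0.062, edgeR adjusted p = 2.03e-17). Its neighbor HSPA1B encodes nearly the same protein, and 71.4% of its 50-base windows are also in HSPA1A. HSPA1B had 48.3, 52.9 and 57.9 CPM in the controls and 34.4, 50.3 and 36.7 CPM after treatment, where replicate B reached the control range, and it was not called (log2 fold change -0.37, SE 0.18, edgeR adjusted p = 0.160). Without AS1842856 replicate B, HSPA1B was called at -0.57 (edgeR adjusted p = 3.16e-14), and without AS1842856 replicate A it was called at -0.27 (edgeR adjusted p = 0.0135). With all libraries kept, it was called without the filter on low counts (edgeR adjusted p = 0.00848) and by limma on log2(FPKM + 0.1) (adjusted p = 0.0499). How the counting divided reads between this pair is not given in the sources used here, so the values of each alone are uncertain. The ratio of HSPA1A to HSPA1B counts overlapped between groups, at 2.10, 1.56 and 1.68 in the controls and 1.59, 0.927 and 1.27 after treatment. Summed into 1 gene they fell by 0.71 on the log2 scale (SE 0.045, edgeR adjusted p = 9.02e-31).

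HSPA8, the constitutive HSP70 that also strips clathrin from vesicles, fell less. Its levels were 2569, 2653 and 2648 CPM in the controls and 2204, 2238 and 2162 CPM after treatment, without overlap (log2 fold change -0.25, SE 0.031, edgeR adjusted p = 1.42e-13). HSPA2, an HSP70 best known from the testis, fell from 51.1, 53.3 and 49.8 CPM to 29.3, 29.6 and 28.0 CPM (log2 fold change -0.83, edgeR adjusted p = 5.08e-28). HSPA1L, HSPA12A and HSPA12B were below 3 CPM in every library and were not called. Of the 2 identifiers of HSPA14, a ribosome-bound HSP70, ENSG00000187522 was called at 0.19 (edgeR adjusted p = 0.0241) and ENSG00000284024 was not, at 0.07. The first call was lost with DESeq2 (adjusted p = 0.113) and, in edgeR, without DMSO replicate A (adjusted p = 0.218), AS1842856 replicate B (adjusted p = 0.0960) or AS1842856 replicate C (adjusted p = 0.05004), and without a filter in edgeR and in limma.

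HSP110 proteins, relatives of HSP70, act as its nucleotide exchange factors. HSPA4L, 1 of 3 genes in this family, had 51.5, 58.6 and 58.8 CPM in the controls and 34.7, 34.3 and 33.7 CPM after treatment (log2 fold change -0.71, SE 0.061, edgeR adjusted p = 4.03e-24). HSPH1, which heat induces strongly in most cells, gave 622, 639 and 683 CPM in the controls and 656, 666 and 629.9 CPM after treatment. Its libraries overlapped and its log2 fold change of 0.006 (SE 0.034) was not called (edgeR adjusted p = 0.904). HSPA4 was not called, at 0.08 (SE 0.035, edgeR adjusted p = 0.0567), but was called with DESeq2's size factors (edgeR adjusted p = 0.0487), without DMSO replicate C (edgeR adjusted p = 0.0225) and without AS1842856 replicate C (edgeR adjusted p = 0.0421).

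Small heat shock proteins hold unfolded proteins without ATP. HSPB1, which is also known as HSP27 and is abundant in many breast cancer cells, had 461, 400.3 and 394 CPM in the controls and 288, 267 and 274 CPM after treatment. It fell by 0.60 on the log2 scale (SE 0.041, edgeR adjusted p = 3.36e-19), with no overlap between groups. HSPB11, a component of the transport machinery of cilia despite its symbol, lay between 41.5 and 51.0 CPM in all libraries and was not called.

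Of the heat shock factors, HSF1 rose. It had 254, 244 and 235 CPM in the controls and 298, 317 and 317 CPM after treatment, with a log2 fold change of 0.35 (SE 0.037, edgeR adjusted p = 1.81e-17). HSF2, its relative in development and stress, stood at 34.3, 33.3 and 35.9 CPM and then at 33.8, 32.3 and 32.3 CPM, and was not called (edgeR adjusted p = 0.350). These are RNA levels, and HSF1 is known to be controlled mainly through its protein.

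As a group, the 9 tested heat-inducible cytosolic members held 6 lower calls (HSPA1A, HSPA4L, HSP90AA1, HSPB1, HSPA8 and DNAJA1), 1 higher (DNAJB1) and 2 genes not called (HSPA1B and HSPH1). Over all genes tested, 28.4% were called lower and 27.6% higher. The group's median log2 fold change of -0.37, beside 0.003 over all genes tested, is the value of HSPA1B, the gene in the middle, and went from -0.27 without AS1842856 replicate A to -0.57 without AS1842856 replicate B. The group holds HSPA8, which is constitutive and only further induced by heat, and leaves out the constitutive HSP90AB1. In groupings tried after the values were seen, the median was -0.49 with 5 lower calls without HSPA8, -0.31 with 6 lower calls with HSP90AB1 added, and -0.43 without HSPA1B.

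The exception was DNAJB1 (ENSG00000132002, chr19:14514770-14529770, minus strand), the HSP40 that hands substrates to HSP70 and dampens HSF1. It had 164, 157 and 159 CPM in the controls and 268, 273 and 274 CPM after treatment, far outside the spread of either group. The log2 fold change was 0.76 (SE 0.038, edgeR adjusted p = 2.35e-52). DNAJB1 shares 5.75% of its exon bases with TECR on the opposite strand, a gene with 67.1% as many counts, and the use of strand in counting is not given in the sources used here. DNAJA1, the other main cytosolic J protein, fell slightly from 685, 685 and 708 CPM to 653, 662 and 639 CPM (log2 fold change -0.09, edgeR adjusted p = 0.0167), a call that did not hold without DMSO replicate C (adjusted p = 0.0707), without AS1842856 replicate C (adjusted p = 0.0865) or in limma without a filter.

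The ratio of HSPA1A to DNAJB1 counts, also chosen after the values were seen, was 0.616, 0.526 and 0.611 in the controls and 0.205, 0.171 and 0.170 after treatment. Its log2 difference was -1.69. This ratio takes HSPA1A without HSPA1B, so the uncertain division of reads between that pair applies to it too. Other cytosolic class B J proteins went both ways. DNAJB4, close in sequence to DNAJB1, rose from 116, 132 and 135 CPM to 191, 179 and 160.4 CPM (log2 fold change 0.47, edgeR adjusted p = 4.03e-07). DNAJB5 fell from 16.7, 17.3 and 17.9 CPM to 10.6, 10.8 and 13.1 CPM (log2 fold change -0.59, edgeR adjusted p = 1.32e-07). DNAJB6, which suppresses protein aggregation, fell by 0.28 on the log2 scale, and DNAJB2 rose by 0.21, a call lost without DMSO replicate B (edgeR adjusted p = 0.0533) or AS1842856 replicate C (edgeR adjusted p = 0.0944) and in the 3 limma fits to FPKM. DNAJA2 was called at 0.13 (edgeR adjusted p = 0.0196), but its libraries overlapped and the call did not hold without DMSO replicate A (edgeR adjusted p = 0.241), without AS1842856 replicate C (edgeR adjusted p = 0.122), with DESeq2 (adjusted p = 0.0975), without a filter or in the limma fits to FPKM.

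**Figure D3:**
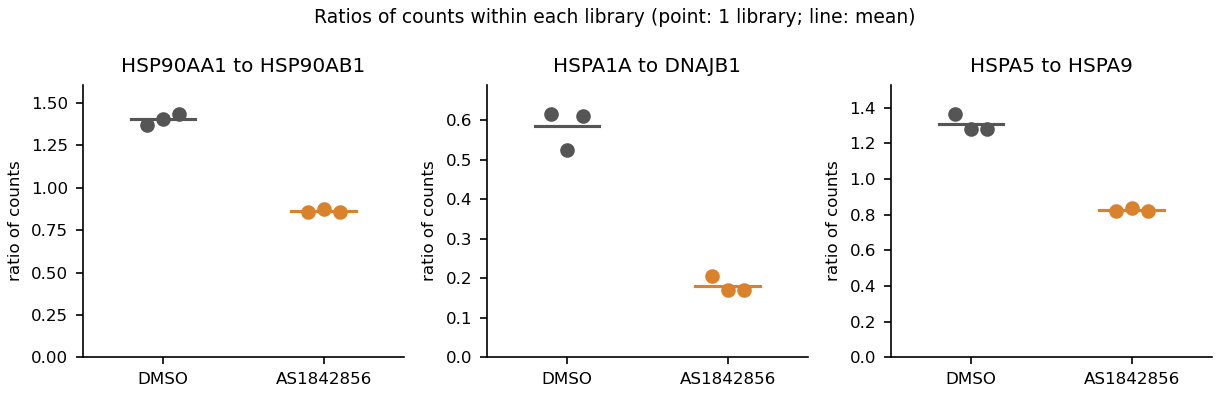
Ratios of counts within each library, with 1 point per library, a line at the group mean and axes from 0, for HSP90AA1 to HSP90AB1, HSPA1A to DNAJB1 and HSPA5 to HSPA9. These 3 ratios are lower in every treated library than in any control library, from 1.37 to 1.44 against 0.858 to 0.876 for the HSP90 pair. HSPA1A is taken without HSPA1B, with which it shares most of its sequence.

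HSF1 binds repeats of a short unit, the heat shock element, and the promoters below are shown because they carry it in genes whose RNA differed in different ways. The 250 bases before each RefSeq start (GRCh38.p14) were searched on both strands for 3 alternating units, GAANNTTCNNGAA or TTCNNGAANNTTC, in which N is any base. The RefSeq table held 84 promoters for 64 of the 74 member symbols. Of these promoters 6 carried the letters, those of HSP90AA1 (1 of its 2 starts), HSP90AB1, HSPA8, HSPD1, DNAJB6 and HSPA6, while 0.441% of all 35116 promoters did. HSP90AA1, HSPA8 and DNAJB6 fell, HSPD1 rose, HSP90AB1 was not called and HSPA6 was hardly detected. The letters did not occur in these windows for HSPA1A, DNAJB1, HSPH1 or DNAJC6, which says nothing about sites elsewhere. Sequences run 5′ to 3′ along the gene, with the motif in capitals. Where an annotated exon covers the motif, at most 30 bases are shown.
HSP90AA1, chr14:102087111-102087140, minus strand: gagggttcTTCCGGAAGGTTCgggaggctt
HSP90AB1, chr6:44247716-44247865, plus strand: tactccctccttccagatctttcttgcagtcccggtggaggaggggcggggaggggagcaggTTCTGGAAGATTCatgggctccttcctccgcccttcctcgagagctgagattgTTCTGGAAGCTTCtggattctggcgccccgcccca
HSPA8, chr11:123062170-123062199, minus strand: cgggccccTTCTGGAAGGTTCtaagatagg
HSPA8, chr11:123062345-123062374, minus strand: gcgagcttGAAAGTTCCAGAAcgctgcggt
HSPD1, chr2:197500061-197500090, minus strand: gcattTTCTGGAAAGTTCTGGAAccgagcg
In HSPD1 both patterns overlap, which makes 4 units in a row. HSP90AB1 and HSPA8 have 2 separate matches each.

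In the ER, HSPA5 and HSP90B1 fell, and the J proteins DNAJC3 and DNAJB11 rose. HSPA5 (ENSG00000044574, chr9:125234853-125241330, minus strand), known as BiP, binds nascent secretory proteins and holds the stress sensors of the unfolded protein response (UPR) in check. Its levels were 1119.5, 1050.1 and 1071 CPM in the controls and 764, 807 and 784 CPM after treatment. It fell by 0.46 on the log2 scale (SE 0.033, edgeR adjusted p = 6.95e-32), without overlap. HSP90B1, the ER HSP90 known as GRP94, fell from 744, 754 and 768 CPM to 588, 636 and 619 CPM (log2 fold change -0.30, SE 0.034, edgeR adjusted p = 1.13e-15). HSPA13, another and less abundant HSP70 of the ER, had 81.1, 91.0 and 79.7 CPM in the controls and 87.7, 88.8 and 87.9 CPM after treatment, and was not called (log2 fold change 0.07, edgeR adjusted p = 0.177). Without DMSO replicate B, HSPA13 was called at 0.13 (edgeR adjusted p = 0.0319).

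Of the ER J proteins, DNAJC3, which also inhibits the kinase PERK, rose from 78.9, 77.7 and 81.5 CPM to 92.5, 97.0 and 93.2 CPM (log2 fold change 0.25, edgeR adjusted p = 1.13e-06). DNAJB11, a soluble partner of BiP, rose from 67.5, 62.2 and 64.8 CPM to 70.4, 77.1 and 78.1 CPM (log2 fold change 0.21, edgeR adjusted p = 0.000129). DNAJB14, bound to the ER membrane, was called at 0.18 with edgeR but not without DMSO replicate A (adjusted p = 0.113), with DESeq2 (adjusted p = 0.0605) or in the 3 fits of limma to FPKM. DNAJC10, a reductase with a J domain, was called lower by 0.13 on the log2 scale with edgeR (adjusted p = 0.00411) but not in the 3 fits of limma to FPKM. DNAJB9, which the UPR factor XBP1 induces, was low and variable, with 11.2, 7.88 and 10.9 CPM in the controls and 8.28, 9.02 and 8.02 CPM after treatment. Its groups overlapped and it was not called (log2 fold change -0.25, edgeR adjusted p = 0.0732), although without DMSO replicate B it was (-0.39, edgeR adjusted p = 0.00925). It shares 6.45% of its exon bases with THAP5 on the opposite strand, which has 296% as many counts. The 10 ER members held 3 higher and 3 lower calls, beside 56.0% of all genes called in either direction, with a median of 0.01.

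The promoters of 2 members show the ER stress element, the sequence through which ATF6 acts, and the RNA of both genes fell. Whether the element has a part in these changes was not tested. The letters searched were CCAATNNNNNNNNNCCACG and, on the other strand, CGTGGNNNNNNNNNATTGG. They occurred in 2 of the 84 member promoters, those of HSPA5 and HSP90B1, and in 0.0740% of all promoters. HSP90B1 had 1 match in each direction.
HSPA5, chr9:125241344-125241493, minus strand: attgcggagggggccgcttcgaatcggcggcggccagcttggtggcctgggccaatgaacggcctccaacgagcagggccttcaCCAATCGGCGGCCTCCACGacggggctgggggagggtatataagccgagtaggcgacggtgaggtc
HSP90B1, chr12:103930211-103930240, plus strand: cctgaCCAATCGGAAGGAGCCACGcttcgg
HSP90B1, chr12:103930316-103930345, plus strand: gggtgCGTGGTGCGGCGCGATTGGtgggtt
Another pattern, TGATGNAAT or ATTNCATCA, to which ATF4 binds with a partner, was found in 0.888% of all promoters and among the members only for DNAJA4.

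The other ER chaperones and folding enzymes that were measured held 10 lower and 4 higher calls among 19 genes (over all genes, 28.4% lower and 27.6% higher), with a median log2 fold change of -0.14. CRELD2, a secreted ER stress protein, fell from 50.2, 46.0 and 45.9 CPM to 37.1, 33.4 and 34.4 CPM (log2 fold change -0.44, edgeR adjusted p = 1.39e-10). CALR, a lectin chaperone for glycoproteins, fell by 0.28 (edgeR adjusted p = 1.33e-14), and SERPINH1, the collagen chaperone HSP47, fell by 0.24 (edgeR adjusted p = 9.65e-10). The largest increases on this list were those of FKBP14 at 0.30, a prolyl isomerase that acts on collagens, and SEC63 at 0.21, the J protein of the translocon.

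The sensors and factors of the UPR and the genes of ER-associated degradation held 7 higher and 4 lower calls among 16 tested, with a median of 0.11, beside 27.6% higher and 28.4% lower over all genes. PPP1R15A, which encodes GADD34 and restarts translation, rose from 51.5, 46.7 and 48.2 CPM to 98.5, 98.5 and 104 CPM (log2 fold change 1.03, edgeR adjusted p = 7.02e-53). ATF4, the stress factor upstream of it, rose by 0.30 (edgeR adjusted p = 4.25e-15). HERPUD1, an ER membrane protein of degradation, fell from 25.6, 28.3 and 22.98 CPM to 16.3, 16.5 and 16.0 CPM (log2 fold change -0.65, edgeR adjusted p = 1.22e-11). ATF6 itself fell by 0.50 (edgeR adjusted p = 3.36e-16) and XBP1 by 0.17 (edgeR adjusted p = 0.00354). DDIT3, which encodes CHOP, had 12.6, 13.6 and 13.1 CPM and then 13.4, 13.8 and 16.4 CPM and was not called (edgeR adjusted p = 0.204). ERN1, the gene of the sensor IRE1, was called higher at 0.38 with edgeR (adjusted p = 0.00718) but not with DESeq2 (adjusted p = 0.0764), nor with edgeR without DMSO replicate A (adjusted p = 0.0736), DMSO replicate C (adjusted p = 0.0510) or AS1842856 replicate B (adjusted p = 0.0614).

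Of the 7 members grouped as mitochondrial 6 rose, all by 0.16 to 0.25 on the log2 scale, and 1 fell, with a median of 0.20. Over all genes, 27.6% were called higher and 28.4% lower, with a median of 0.003. DNAJC30, which was not placed in the group although it also encodes a mitochondrial protein, fell, and with it the group held 6 higher and 2 lower calls of 8, with a median of 0.19. HSPD1 (ENSG00000144381, chr2:197486581-197516737, minus strand), the chaperonin HSP60, had 867, 909 and 917 CPM in the controls and 1025, 1056 and 1022 CPM after treatment, without overlap. Its log2 fold change was 0.21 (SE 0.033, edgeR adjusted p = 7.48e-09). HSPE1, the lid of that chaperonin, rose from 67.7, 67.9 and 64.5 CPM to 76.9, 69.4 and 80.5 CPM (log2 fold change 0.18, edgeR adjusted p = 0.00159), a call lost without AS1842856 replicate C (adjusted p = 0.0519) and in limma without a filter. In the annotation used, HSPE1 (chr2:197499994-197503457, plus strand) lies within the span of HSPD1. The exon bases that the 2 genes share on opposite strands make up 14.2% of those of HSPE1, so that without strand their reads cannot be told apart there. HSPA9, the mitochondrial HSP70 that pulls proteins through the inner membrane, rose from 819.6, 821 and 837 CPM to 930.4, 961 and 952 CPM (log2 fold change 0.20, SE 0.033, edgeR adjusted p = 2.25e-08).

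Its J protein partner DNAJA3 rose by 0.25 (edgeR adjusted p = 6.79e-07), DNAJC15 by 0.20 and DNAJC11, which takes part in shaping the cristae, by 0.16. DNAJC19, of the import motor, fell within the group, from 20.2, 20.1 and 18.4 CPM to 13.4, 14.6 and 15.4 CPM (log2 fold change -0.43, edgeR adjusted p = 2.72e-05). The ratio of HSPA5 to HSPA9 counts, chosen after the values were seen and made of the HSP70s of the ER and the mitochondria, was 1.37, 1.28 and 1.28 in the controls and 0.821, 0.840 and 0.823 after treatment, with a log2 difference of -0.66. Other mitochondrial chaperones and proteases held 6 higher and 1 lower call among 14 genes, beside 56.0% of all genes called in either direction. GRPEL2, an exchange factor of HSPA9, rose by 0.38 (edgeR adjusted p = 9.13e-09) and the protease subunit AFG3L2 by 0.28 (edgeR adjusted p = 1.45e-06), while SPG7, with which AFG3L2 forms 1 protease, fell by 0.23 (edgeR adjusted p = 2.34e-05).

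**Figure D4:**
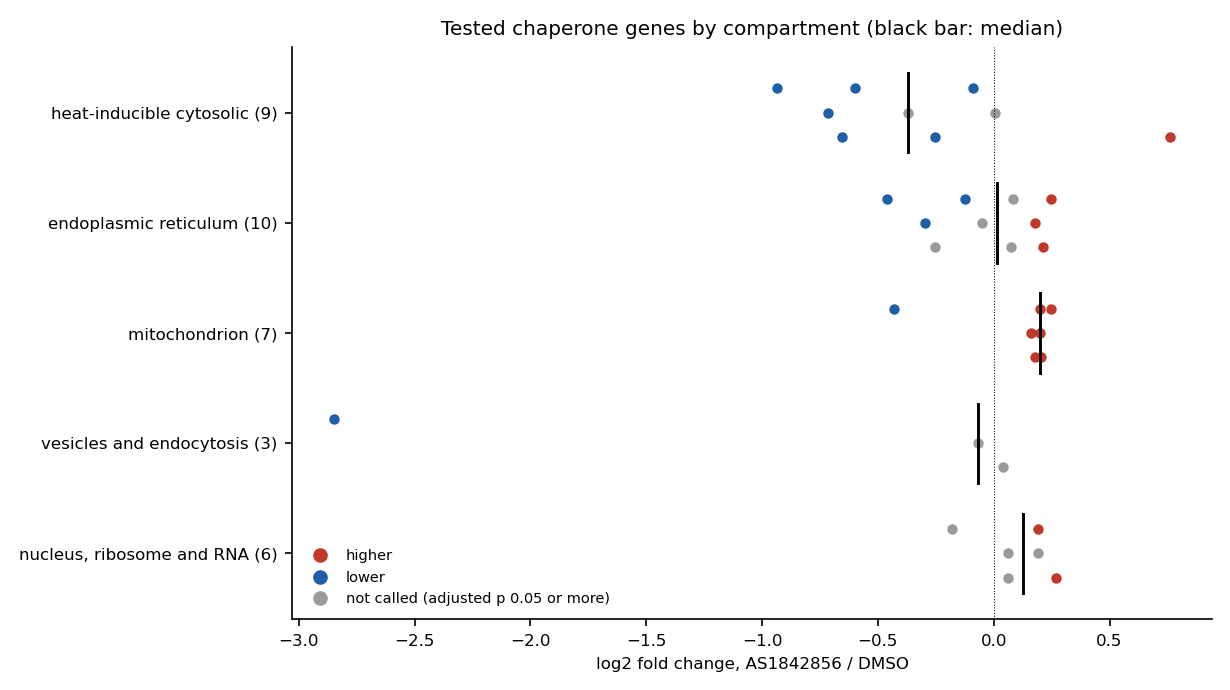
Log2 fold change of each tested member in 5 groups by place of action, with the number of genes in parentheses, a black bar at the median and colors for the edgeR call (vertical position within a group has no meaning). The heat-inducible cytosolic group has its median at -0.37, which is the value of HSPA1B, and the mitochondrial group at 0.20.

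DNAJC6 (ENSG00000116675, chr1:65248219-65415869, plus strand) encodes auxilin, the J protein that brings HSPA8 to clathrin-coated vesicles and is best known from neurons. It had 10.4, 11.3 and 9.04 CPM in the controls and 1.62, 1.27 and 1.402 CPM after treatment. With 168 to 229 counts in the controls and 25 to 29 after treatment, it fell by 2.85 on the log2 scale (SE 0.18, edgeR adjusted p = 1.95e-37), and the estimate lay between -2.94 and -2.76 when any library was left out. The other vesicle J proteins, DNAJC5 of synaptic vesicles and DNAJC13 of endosomes, were not called, at -0.07 and 0.04. Among the 6 J proteins of the nucleus, ribosome and RNA, 2 rose and 4 were not called, where 27.6% of all genes were called higher and 28.4% lower. DNAJC21, which acts in ribosome assembly, rose from 90.5, 87.3 and 99.6 CPM to 116, 111 and 108 CPM (log2 fold change 0.27, edgeR adjusted p = 3.49e-08), and DNAJC9, a histone chaperone, rose by 0.19.

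2 further low J proteins were among the largest changes and both share exons with a more abundant gene. DNAJC30, the mitochondrial J protein named above, fell from 8.74, 9.05 and 7.70 CPM to 6.18, 5.39 and 6.11 CPM (log2 fold change -0.53, edgeR adjusted p = 0.000427), and 14.4% of its exon bases are shared with BUD23 on the opposite strand. DNAJC4 rose from 9.93, 8.59 and 10.3 CPM to 11.6, 11.7 and 13.5 CPM (log2 fold change 0.34, edgeR adjusted p = 0.00694), and 10.6% of its exon bases are shared with NUDT22 on the same strand. The DNAJC4 call was lost without AS1842856 replicate C (adjusted p = 0.0643), without DMSO replicate B (adjusted p = 0.0554) and with DESeq2 (adjusted p = 0.0531).

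The 27 tested members that were not called had log2 fold changes from -0.37 to 0.71, and the highest, those of DNAJC22 and HSPA12B, belonged to genes under 2 CPM in every library. Another 15 members failed the filter. HSPA7, HSPB2, HSPB3, HSPB8, DNAJB3 and DNAJB8 had 0 counts in all libraries, where a count of 0 in the shallowest library allows up to 3 counts in 15289500. HSPA6, an HSP70 seen mainly under strong heat stress, had 10, 2 and 2 counts in the controls and 0, 5 and 1 after treatment. DNAJA4 had 1, 2 and 0 counts and then 15, 1 and 7, and DNAJC28, DNAJC12, DNAJB7, DNAJB13, HSPB6, HSPB7 and HSPB9 had at most 17 counts in any library. Without the filter on low counts, DNAJA4 was called with edgeR.

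Genes that work with the chaperones were followed in further lists. Among 21 tested co-chaperones of HSP90 and HSP70, 9 rose, 3 fell and 9 were not called, with a median of 0.06, beside 56.0% of all genes called. BAG1, an exchange factor of HSP70, rose from 78.2, 77.8 and 78.3 CPM to 106, 109 and 109 CPM (log2 fold change 0.46, edgeR adjusted p = 3.98e-19), and PPP5C, a phosphatase that binds HSP90, rose by 0.33 (edgeR adjusted p = 2.59e-13). BAG3, which links HSP70 to autophagy and is itself a target of HSF1, fell from 96.4, 92.8 and 95.5 CPM to 76.6, 76.4 and 74.1 CPM (log2 fold change -0.33, edgeR adjusted p = 2.40e-10). BAG2, an inhibitor of the ubiquitin ligase CHIP, fell by 0.31 (edgeR adjusted p = 1.13e-08).

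The cytosolic chaperonin TRiC folds actin and tubulin, which prefoldin brings to it. Of the 8 TRiC and 6 prefoldin genes 7 rose, beside 27.6% of all genes, and none was called lower with edgeR, beside 28.4% of all genes. The median was 0.09. Those that rose were CCT2, CCT5, CCT6A, CCT7 and CCT8 of TRiC and PFDN1 and PFDN5 of prefoldin. The PFDN1 call (edgeR adjusted p = 0.0475) was lost with DESeq2 (adjusted p = 0.124), without TMM, without a filter, with a minimum mean of 50 counts, with a replicate block, and when any library but DMSO replicate A was left out (edgeR adjusted p up to 0.223). By DESeq2's adjusted p as well, 0 of the TRiC and prefoldin genes were lower at the 0.05 threshold. DESeq2 called 6791 genes in all, 48.8% of them higher. The lowest estimate on this list was that of VBP1, a prefoldin gene, at -0.08 (edgeR adjusted p = 0.0957). CCT5 rose most, from 690.1, 697 and 709.7 CPM to 981, 1008 and 963 CPM (log2 fold change 0.49, edgeR adjusted p = 3.29e-35), and CCT2 rose by 0.21 (edgeR adjusted p = 1.07e-08). The other subunits of TRiC lay at 0.05 to 0.18.

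Other targets of the heat shock factors held 2 higher and 4 lower calls among 13 tested, with a median of -0.02, beside 56.0% of all genes called. The metallothionein MT2A fell from 124, 119 and 116 CPM to 58.5, 64.1 and 64.2 CPM (log2 fold change -0.94, edgeR adjusted p = 1.98e-51). IER5, which activates HSF1, rose by 0.17 (edgeR adjusted p = 0.000560) and FKBP4, an HSP90 co-chaperone, by 0.13 (edgeR adjusted p = 0.00135). This list overlaps the lists above. The calls of BAG3, SERPINH1, STIP1 and FKBP4 were counted there too, and CHORDC1, AHSA1, PTGES3, TCP1 and CCT3 are also shared. CRYAB had 0 counts in every library.

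**Figure D5:**
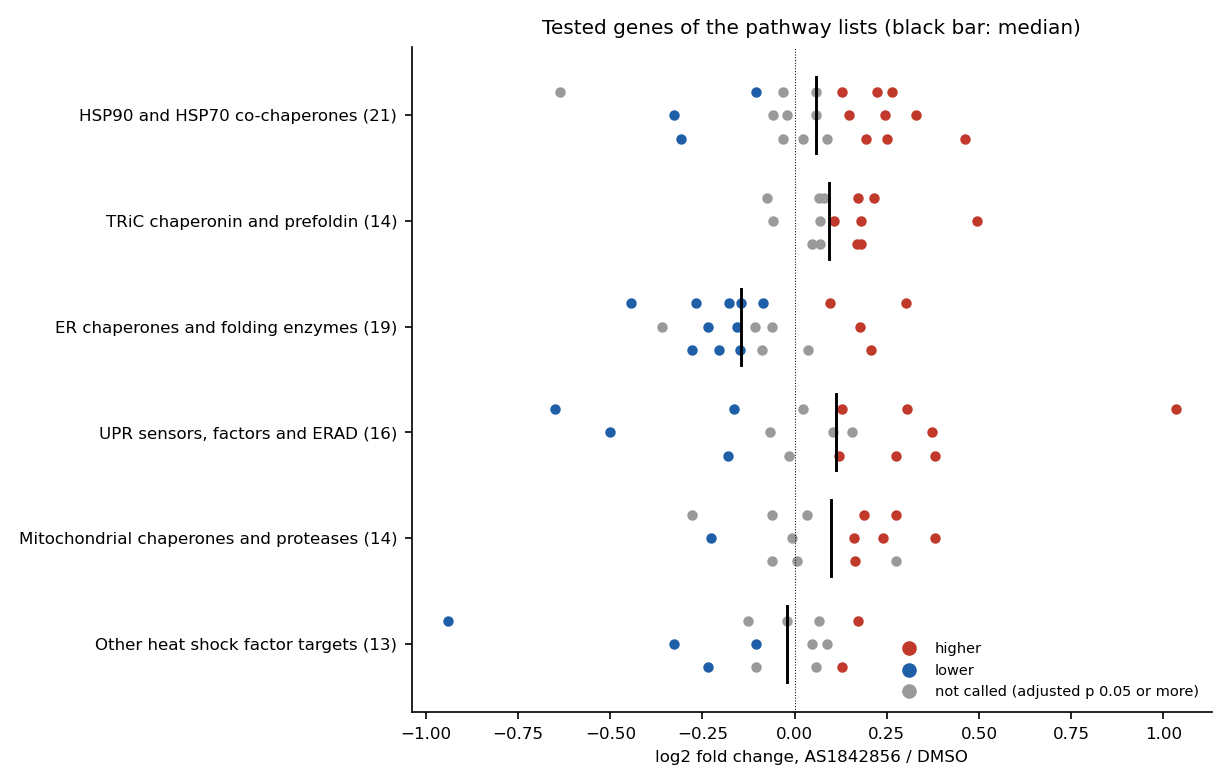
Log2 fold change of each tested gene in the 6 lists of partner genes, with the number of genes in parentheses, a black bar at the median and colors for the edgeR call (vertical position within a list has no meaning). ER chaperones lie mostly left of 0 with a median of -0.14, and PPP1R15A at 1.03 is the point farthest to the right.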

How the data were processed

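The counts per gene and the FPKM values were both deposited, and the authors made them at a sequencing company from Illumina reads called with CASAVA. The submitters' processing notes name Bowtie 0.12.2 and GRCh38, while the paper names STAR as the mapper. The counting tool, annotation and use of strand are not given in the sources used here. All 58735 gene identifiers were found in GENCODE 29 (Ensembl 94), which gave symbols, GRCh38 positions and exons.

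The members, lists, compartment groups and the rule for named genes were chosen with earlier results of these data known. Named were 20 core members, the 8 largest called changes in each direction at 1 CPM or more, the 2 largest called in each direction per list, 6 regulators and all members that failed the filter. Others named for their values, such as DNAJC19, DNAJB2, DNAJB6 and DNAJA2, were chosen after these were seen.

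Genes passed edgeR's filterByExpr (minimum count 10, minimum total 15), were scaled by TMM and tested by edgeR 4.0.16 (R 4.3.3) with the quasi-likelihood test and Benjamini-Hochberg adjustment, calling an adjusted p under 0.05. The 6 libraries, 3 a group, entered without covariates. Replicates of a group differed by more than sampling noise (chi-square per degree of freedom 2.37 to 3.28). DMSO and AS1842856 libraries of the same letter did not deviate together (correlations -0.0197 to 0.0133), so letters were not used as pairs. The fits were first tested on simulated data. Alternatives were DESeq2 1.42.0, its size factors, no TMM, other filters, each library left out, a replicate block and limma 3.58.1 on log2(FPKM + 1). Shared sequence was counted in windows of 50 bases over GENCODE transcripts. Promoters are RefSeq's, for GRCh38.p14. Protein sequences were not used here. The floor given for 0 counts covers counting error only, while the SEs come from the quasi-likelihood test and include the spread between libraries.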

Additional observations from a re-analysis of the deposited data

How the results depend on the processing

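The number of members called was 33 in the results above and 26 to 34 under the 9 alternatives that kept all libraries, and 29 to 34 when a library was left out. Over all genes, 8029 were called in the results above, 6523 to 8030 under those alternatives and 7427 to 7678 when a library was left out, and 56 to 69 members were tested. No member called in both changed sign. DESeq2 called 29 members, and 6791 genes in all, and lost DNAJA2, DNAJB14, DNAJC4 and HSPA14. Leaving out AS1842856 replicate C lost 6 calls, more than leaving out any other library, those of DNAJA1, DNAJA2, DNAJB2, DNAJC4, HSPA14 and HSPE1. Without a filter, limma on log2(FPKM + 1) lost 7 and called 6523 genes in all. HSPH1, at 0.006, turned to -0.0082 without a filter on low counts and ran from -0.027 to 0.040 when a library was left out, not called in any of these fits.

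The letters A to C do not pair the libraries. With the letter as a replicate block, 34 members and 7862 genes in all were called, and the members' median log2 fold change was 0.06. The same 33 members were called with the block, and HSPA1B was added at -0.40 (edgeR adjusted p = 5.69e-07).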

Other observations

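UBB, a polyubiquitin gene that the heat shock response also induces, varied widely between replicates. It had 432, 193 and 388 CPM in the DMSO libraries A to C and 201, 361 and 369 CPM in the AS1842856 libraries A to C. Its within-group SD on the log2 scale, 0.568, was the highest of the 6353 genes at 30 CPM or more, whose median was 0.055. DMSO replicate B and AS1842856 replicate A, its lowest libraries, also had the lowest total counts, 15289500 and 16643243, and whether depth has a part in this was not tested. The heat shock genes HSPA1B and HSPA1A ranked 5 and 47 in the same order, with SDs of 0.227 and 0.147. The 43 members at 30 CPM or more had a median SD of 0.050.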
